A study of Homo sapiens with 10 samples.

Results

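The EGF receptor family and its ligands were examined as 10 listed genes: the receptor genes EGFR, ERBB2, ERBB3 and ERBB4, and the ligand genes HBEGF, BTC, EREG, AREG, TGFA and NRG1. They were chosen by name, as every probe set annotated to these symbols. Of the 10, 7 had a named probe set, 1 each, among the 14884 genes that could be named on the arrays. ERBB2, AREG and TGFA had none and were not analysed here. The arrays carried RNA of MCF10A, a human breast epithelial line that grows without limit but forms no tumours, and that is known to need added EGF in culture. There were 5 arrays of H2A.X-KO cells, which lack the gene of H2A.X, a histone variant that marks sites of DNA breakage when phosphorylated, and 5 of WT cells, the parental line. Cells of both groups had been kept for 48 h in medium with 20 ng/ml EGF, 500 ng/ml hydrocortisone, 100 ng/ml cholera toxin, 10 µg/ml insulin and 5% horse serum, so that EGF was supplied to all 10 samples. The labels do not say whether the knockout line is 1 clone or several, or whether the samples of a group were separate cultures. The spread between arrays, on which each p-value rests, may therefore be technical.

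The family works as a relay across the cell membrane. Ligands are made as membrane-bound precursors, are cut free by ADAM proteases, and bind receptors that then pair, phosphorylate each other and recruit adaptors that start the RAS-ERK and PI3K-AKT cascades. EGF, HBEGF, BTC, EREG, AREG, TGFA and EPGN bind EGFR, and HBEGF, BTC and EREG also bind ERBB4. The neuregulins bind ERBB4, and some of them also bind ERBB3. ERBB2, which has no known ligand of its own, serves as the partner of the other receptors. Mammary epithelial cells are known to make several of these ligands themselves.

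In H2A.X-KO cells the receptor transcript EGFR was higher and its ligand transcripts moved in opposite directions. HBEGF was 3.15-fold lower and BTC 1.78-fold lower in signal, while EREG was 1.19-fold higher and the related ligand EPGN, which is outside the 10, was 1.52-fold higher. ERBB3, ERBB4 and NRG1 did not pass the test. Of the 7 measured members, 4 passed limma at a Benjamini-Hochberg adjusted p under 0.05, 2 higher and 2 lower, against 33.2% of the 16098 named probe sets, 14.5% higher and 18.7% lower. The same 4 were those whose H2A.X-KO arrays all lay on 1 side of the WT arrays, which was so for 27.4% of all named probe sets. The median difference of the 7 was -0.15 on the log2 scale, beside -0.001 over all named probe sets. In RNA from whole cultures, fewer cells expressing a gene and less of its RNA per cell cannot be told apart.

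The promoters of the 4 members that passed and of EPGN are shown, so that those of the ligands that fell can be read beside those of the ligands that rose. Each is the RefSeq window of GRCh38.p14 that runs from 250 bases before the annotated start to 50 bases after it, on the gene's own strand, 5′ to 3′. Capitals mark matches on either strand to 5 short motifs: CAGGTG, an E-box bound by Slug and Snail, TGACTCA, the AP-1 site, TGACGTCA, the cAMP response element, GGGCGG, the GC box bound by SP1, and TATAAA, the TATA box. The HBEGF window lies at chr5:140346554-140346853 on the minus strand, that of BTC at chr4:74794474-74794773 on the minus strand, and that of EGFR at chr7:55018767-55019066 on the plus strand. EREG lies at chr4:74364895-74365194 and EPGN at chr4:74308220-74308519, both on the plus strand.
HBEGF: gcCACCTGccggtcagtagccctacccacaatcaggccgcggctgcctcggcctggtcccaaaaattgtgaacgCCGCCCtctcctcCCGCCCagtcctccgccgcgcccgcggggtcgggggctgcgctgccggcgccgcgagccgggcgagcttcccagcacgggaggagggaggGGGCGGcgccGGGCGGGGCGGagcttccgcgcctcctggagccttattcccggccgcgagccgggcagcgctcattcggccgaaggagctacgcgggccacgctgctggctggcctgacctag
BTC: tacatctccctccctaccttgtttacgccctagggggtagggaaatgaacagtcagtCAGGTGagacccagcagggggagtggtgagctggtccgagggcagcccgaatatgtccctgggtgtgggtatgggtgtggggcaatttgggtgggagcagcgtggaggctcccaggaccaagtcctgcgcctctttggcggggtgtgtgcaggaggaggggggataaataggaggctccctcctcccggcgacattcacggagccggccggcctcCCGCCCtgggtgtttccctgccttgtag
EGFR: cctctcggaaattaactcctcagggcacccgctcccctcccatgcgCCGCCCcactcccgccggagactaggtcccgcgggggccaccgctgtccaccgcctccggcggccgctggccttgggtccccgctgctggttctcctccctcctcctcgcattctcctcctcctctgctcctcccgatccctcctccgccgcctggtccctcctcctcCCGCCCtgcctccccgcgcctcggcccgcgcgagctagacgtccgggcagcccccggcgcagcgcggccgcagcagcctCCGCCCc
EREG: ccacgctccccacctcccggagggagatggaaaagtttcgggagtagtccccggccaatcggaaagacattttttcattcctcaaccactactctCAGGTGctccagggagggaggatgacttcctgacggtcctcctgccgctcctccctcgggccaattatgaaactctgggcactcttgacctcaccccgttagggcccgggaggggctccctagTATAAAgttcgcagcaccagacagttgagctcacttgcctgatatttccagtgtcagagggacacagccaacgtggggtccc
EPGN: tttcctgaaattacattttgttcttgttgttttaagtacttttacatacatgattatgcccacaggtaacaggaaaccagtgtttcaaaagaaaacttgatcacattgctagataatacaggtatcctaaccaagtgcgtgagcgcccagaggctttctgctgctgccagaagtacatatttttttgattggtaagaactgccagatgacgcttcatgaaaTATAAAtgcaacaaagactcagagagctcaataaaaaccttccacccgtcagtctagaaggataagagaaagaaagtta

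The windows of HBEGF and EGFR were 75.0% and 75.3% G or C, those of BTC, EREG and EPGN 63.0%, 57.7% and 37.7%. The median over all promoter windows was 58.7%. HBEGF held 5 GC boxes, of which one pair overlapped by 1 base, EGFR held 3 and BTC held 1. A GC box was present in 45.0% of the 35116 promoter windows of the table. The TATA box stood 32 bases before the start of EREG and 29 bases before that of EPGN, and in 11.5% of all windows. One CAGGTG or its reverse complement CACCTG was found in each of HBEGF, BTC and EREG and in 20.6% of all windows, and so occurred in windows of genes that fell and of a gene that rose. Neither the AP-1 site (4.95% of all windows) nor the cAMP response element (1.85%) was matched in these 5. The matches describe letters only.

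**Figure D1:**
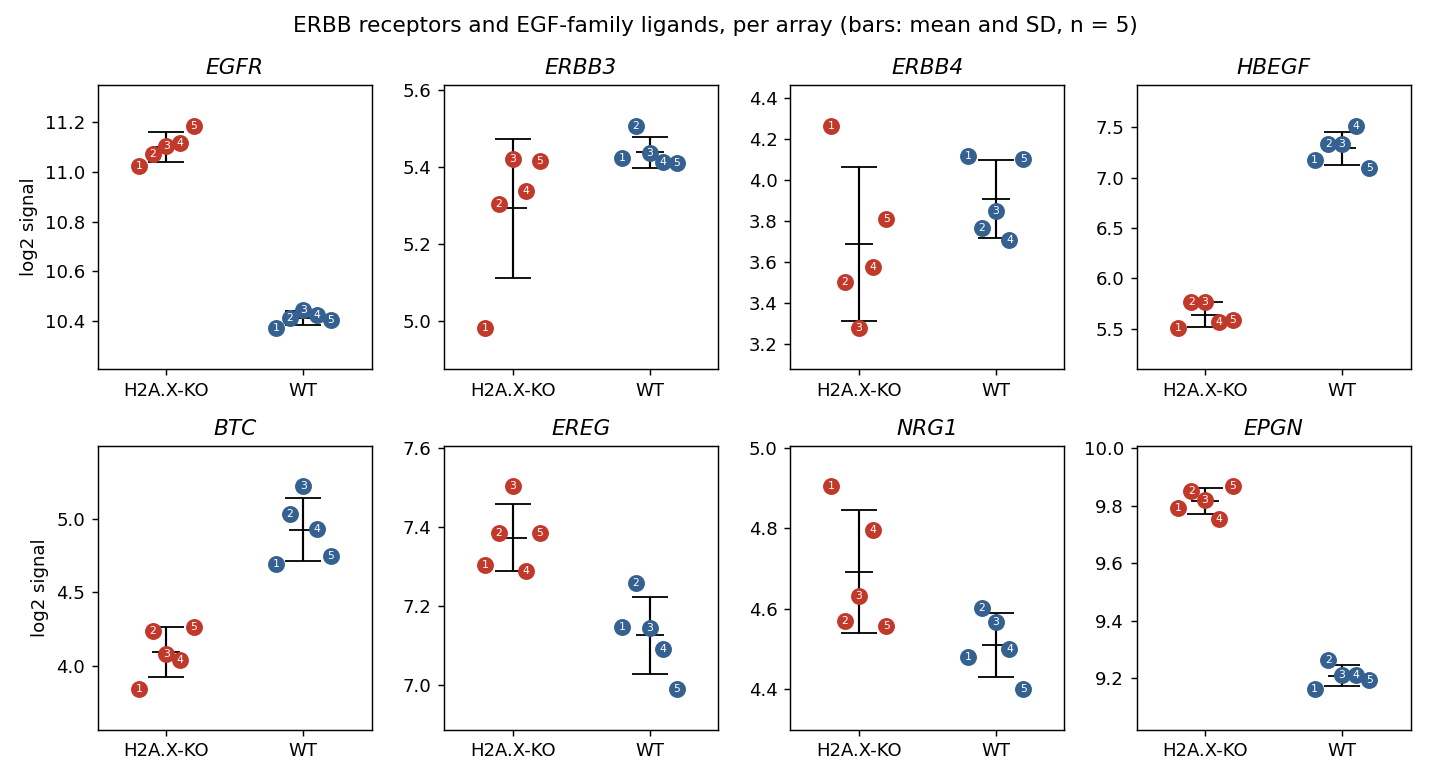
Log2 signal of 7 members and of EPGN in each array, H2A.X-KO left and WT right, with replicate numbers in the points and bars for the mean and SD of 5 arrays; each panel has its own axis. In EGFR, EREG and EPGN every H2A.X-KO array lies above every WT array, in HBEGF and BTC every one lies below, and in ERBB3, ERBB4 and NRG1 the groups overlap.

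Of the 3 receptors measured, EGFR was the 1 that passed the test. EGFR (probe set 17046135, chromosome 7) had log2 signals of 11.02, 11.07, 11.10, 11.12 and 11.19 in H2A.X-KO cells, against 10.37, 10.41, 10.45, 10.43 and 10.40 in WT cells. The lowest H2A.X-KO array stood well clear of the highest WT array. The means were 11.10 ± 0.06 in H2A.X-KO cells and 10.41 ± 0.03 in WT cells (SD, n = 5 each). The difference was 0.69 ± 0.05 (SE) on the log2 scale, with a 95% confidence interval of 0.58 to 0.80 and an adjusted p of 3.25e-07 by limma, a 1.61-fold higher signal. A larger absolute difference was seen in 6.16% of named probe sets.

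ERBB3, a receptor with a weak kinase that signals through its partners, had log2 signals of 4.98, 5.30, 5.42, 5.34 and 5.42 in H2A.X-KO cells, against 5.42, 5.51, 5.44, 5.41 and 5.41 in WT cells. H2A.X-KO replicate 1 stood apart below the rest, and the other 9 arrays lay close together. The difference was -0.15, with an interval of -0.32 to 0.03 (limma, adjusted p = 0.203), and without H2A.X-KO replicate 1 it was -0.07. ERBB4, a neuregulin receptor, had log2 signals of 4.27, 3.50, 3.27, 3.57 and 3.81 in H2A.X-KO cells, against 4.12, 3.77, 3.85, 3.70 and 4.10 in WT cells. Here H2A.X-KO replicate 1 was the highest of all 10 arrays, while the lowest 3 were also H2A.X-KO arrays. The ERBB4 difference was -0.22, with an interval of -0.57 to 0.12 (limma, adjusted p = 0.334). Without H2A.X-KO replicate 1 it was -0.37 and passed (adjusted p = 0.0309). Both receptors lay under 5.43, the median of all probe set means, ERBB4 at the 21.1st percentile, and their intervals include falls larger than the absolute difference of EREG given below.

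HBEGF, the heparin-binding ligand whose precursor is also the diphtheria toxin receptor, showed the largest difference of the 7. HBEGF (probe set 17000724, chromosome 5) had log2 signals of 5.50, 5.77, 5.77, 5.56 and 5.59 in H2A.X-KO cells, against 7.17, 7.34, 7.33, 7.52 and 7.10 in WT cells. The groups were separated by a gap wider than the spread within either. The means were 5.64 ± 0.12 in H2A.X-KO cells and 7.29 ± 0.16 in WT cells (SD, n = 5 each). The difference was -1.66 ± 0.09 (SE), with an interval of -1.84 to -1.47 and an adjusted p of 1.48e-08 by limma. Only 105 of the 16098 named probe sets (0.652%) had a larger absolute difference, and 2.65% of all passed with an absolute difference of at least 1.

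BTC, which encodes betacellulin, a ligand of EGFR and ERBB4, fell as well. BTC (probe set 16976868, chromosome 4) had log2 signals of 3.84, 4.24, 4.08, 4.04 and 4.26 in H2A.X-KO cells, against 4.69, 5.03, 5.22, 4.93 and 4.75 in WT cells. The highest H2A.X-KO array was below the lowest WT array. The means were 4.09 ± 0.17 in H2A.X-KO cells and 4.92 ± 0.22 in WT cells (SD, n = 5 each), a difference of -0.83 ± 0.11 (SE), with an interval of -1.07 to -0.60 (limma, adjusted p = 4.73e-05). BTC was dim, at the 33.2nd percentile, so its fold is less certain than that of HBEGF.

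EREG, which encodes epiregulin, rose by a small amount. EREG (probe set 16967843, chromosome 4) had log2 signals of 7.30, 7.38, 7.50, 7.29 and 7.39 in H2A.X-KO cells, against 7.15, 7.26, 7.14, 7.09 and 6.99 in WT cells. The lowest H2A.X-KO array exceeded the highest WT array by a narrow margin. The means were 7.37 ± 0.09 in H2A.X-KO cells and 7.13 ± 0.10 in WT cells (SD, n = 5 each), a difference of 0.25 ± 0.06 (SE), with an interval of 0.11 to 0.39 (limma, adjusted p = 0.00923). A larger absolute difference was seen in 30.6% of named probe sets. NRG1, which encodes neuregulin 1, a ligand of ERBB3 and ERBB4, had log2 signals of 4.91, 4.57, 4.63, 4.80 and 4.56 in H2A.X-KO cells, against 4.48, 4.60, 4.57, 4.50 and 4.40 in WT cells. The highest 3 arrays were H2A.X-KO arrays but the groups overlapped. The NRG1 difference was 0.18, with an interval of 0.02 to 0.35 before adjustment, and did not pass (limma, adjusted p = 0.0880). NRG1 is spread over many isoforms, and 1 probe set gives no view of them.

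The ligands outside the 10 were EGF, EPGN, NRG2, NRG3 and NRG4, of which 3 passed upward and 0 downward. Their median difference of 0.38 is that of NRG2. Over all named probe sets 14.5% were higher and 18.7% lower. EPGN, which encodes epigen, a ligand of EGFR, had log2 signals of 9.79, 9.85, 9.82, 9.75 and 9.87 in H2A.X-KO cells, against 9.16, 9.26, 9.21, 9.21 and 9.19 in WT cells. The groups lay far apart, and the EPGN difference was 0.61 ± 0.05 (SE; limma, adjusted p = 8.07e-07). NRG2 was at 5.97 ± 0.18 in H2A.X-KO cells and 5.59 ± 0.10 in WT cells (SD, n = 5 each) and passed (adjusted p = 0.00402), but its groups overlapped by 1 array and its other probe set gave 0.11 and did not pass (limma, adjusted p = 0.192). NRG4, a ligand of ERBB4, was at 4.91 ± 0.43 in H2A.X-KO cells and 4.35 ± 0.26 in WT cells (SD, n = 5 each; limma, adjusted p = 0.0336). The NRG4 groups overlapped, its signal was dim, at the 35.5th percentile, and its interval was wide, from 0.16 to 0.96. The NRG4 call ended without H2A.X-KO replicate 1 or 4 or WT replicate 2, 3 or 4, at differences of 0.49 to 0.57 and adjusted p of 0.0538 to 0.0830. EGF itself, the ligand supplied in the medium, was dim in both groups, at 3.91 ± 0.18 in H2A.X-KO cells and 3.99 ± 0.12 in WT cells, and NRG3 was at 3.79 ± 0.24 in H2A.X-KO cells and 3.89 ± 0.19 in WT cells (SD, n = 5 each). Neither passed.

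**Figure D2:**
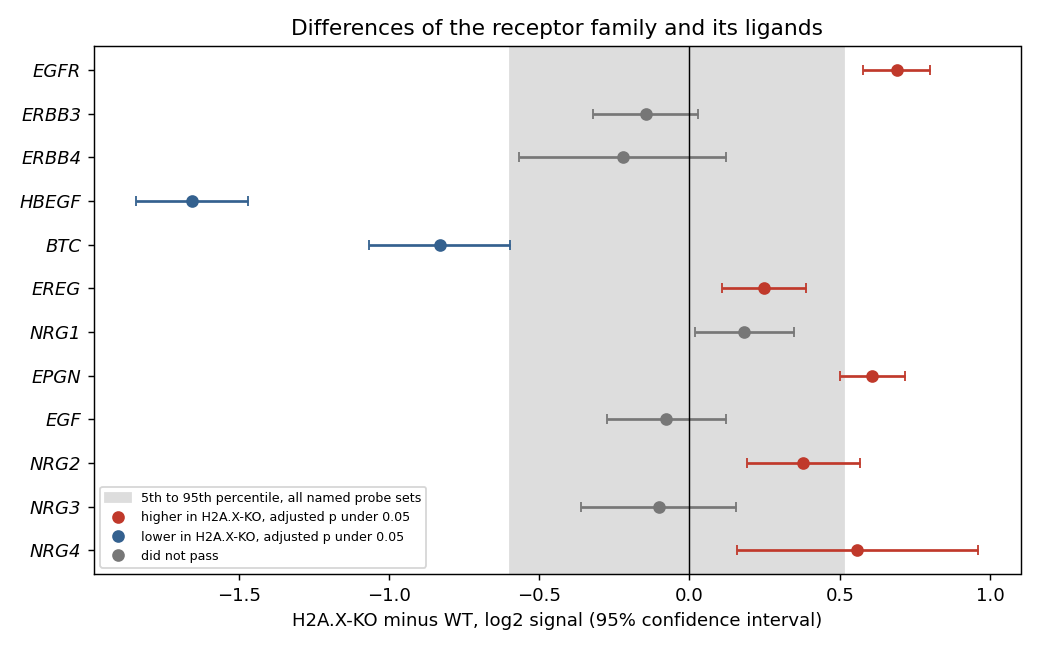
Differences in log2 signal, H2A.X-KO minus WT, of the 7 measured members and 5 further ligands, with 95% confidence intervals from limma; red passed upward, blue passed downward and grey did not pass. HBEGF at -1.66 and BTC at -0.83 lie to the left of the grey band that holds the 5th to 95th percentile of all named probe sets (-0.60 to 0.51), EGFR at 0.69, EPGN at 0.61 and NRG4 at 0.56 to its right, and EREG at 0.25 inside it.

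Genes next to the members on the chromosome were compared, as the 3 measured genes on each side in RefSeq order. EPGN, EREG and BTC are consecutive measured genes on chromosome 4, with AREG between EREG and BTC. MTHFD2L, a gene of mitochondrial folate metabolism on the outer side of EPGN, rose by 0.50, and PARM1, which follows BTC, fell by 1.07. On this stretch 3 neighbouring genes were thus higher and the next 2 lower, while CXCL2 (-0.23), LINC02483 (0.06) and THAP6 (-0.16) at its ends did not pass. Around HBEGF, CYSTM1 fell by 1.31, the prefoldin subunit gene PFDN1 fell by 0.57 and SRA1 fell by 1.12, while IGIP (-0.10) and ANKHD1-EIF4EBP3 (0.06) did not pass. TMCO6 was at 0.25 and passed (limma, adjusted p = 0.0310), a call that ended without H2A.X-KO replicate 2, 3 or 4 or WT replicate 3, 4 or 5, at differences of 0.19 to 0.25 and adjusted p of 0.0565 to 0.0780. On chromosome 5 as a whole, 30.0% of 641 measured genes were lower and 12.3% higher. Beside EGFR, LANCL2 rose by 0.29. The antisense gene EGFR-AS1, which lies within EGFR, was at 0.39 (limma, adjusted p = 0.0324), with overlapping groups. The EGFR-AS1 call ended without H2A.X-KO replicate 2 or 5 or WT replicate 1, 2 or 4, at differences of 0.30 to 0.40 and adjusted p of 0.0534 to 0.0818. The other 4 measured neighbours of EGFR did not pass. Over the neighbours of all 10 genes, counted once, 11 of 50 rose and 10 fell, with a median of -0.01. These 50 include the members EREG, counted among the rises, and BTC, counted among the falls. Over all named probe sets 14.5% were higher and 18.7% lower.

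**Figure D3:**
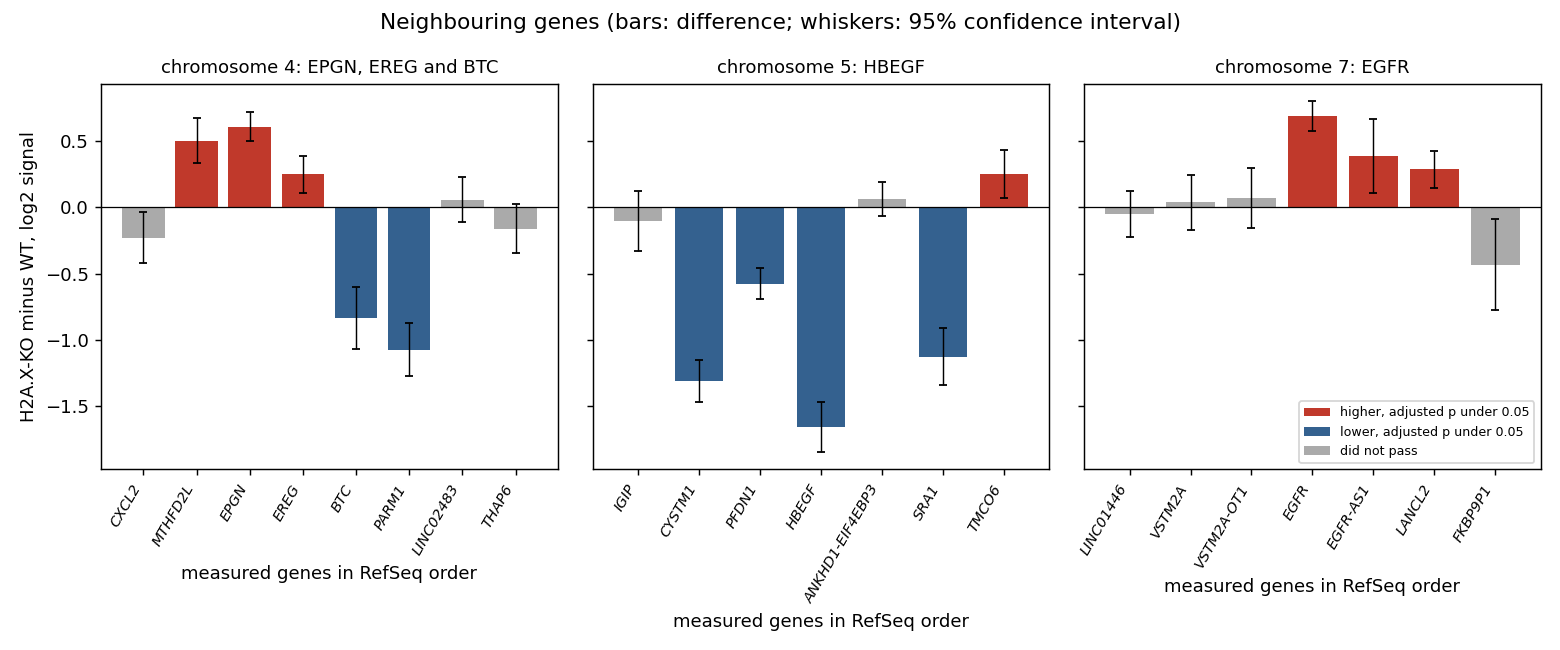
Differences in log2 signal, H2A.X-KO minus WT, of consecutive measured genes around EPGN, EREG and BTC, around HBEGF and around EGFR, with 95% confidence intervals; the horizontal axis is gene order, not distance. On chromosome 4 MTHFD2L, EPGN and EREG are higher and BTC and PARM1 lower, and on chromosome 5 CYSTM1, PFDN1 and SRA1 are lower along with HBEGF.

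Of 10 measured genes that control the shedding of ligands, 1 rose, 2 fell and 7 did not pass, with a median of -0.05. Over all named probe sets 33.2% passed, 14.5% higher and 18.7% lower, the shares to set beside this count and those of the lists below. ADAM17, the main protease that frees HBEGF, EREG, AREG and TGFA, had log2 signals of 8.37, 8.52, 8.44, 8.38 and 8.44 in H2A.X-KO cells, against 8.74, 8.95, 8.88, 8.87 and 8.85 in WT cells. Its groups did not overlap, and the ADAM17 difference was -0.43 ± 0.06 (SE; limma, adjusted p = 5.71e-05). TIMP3, an inhibitor of ADAM17, fell by 0.44, and by 0.49 on its other probe set. RHBDF2, which encodes iRhom2, a partner that brings ADAM17 to the cell surface, rose by 0.38. ADAM10, the main protease for BTC and EGF precursors, was at 9.12 ± 0.10 in H2A.X-KO cells and 9.24 ± 0.06 in WT cells (SD, n = 5 each) and did not pass (limma, adjusted p = 0.191).

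Of 14 measured inhibitors and turnover factors of the receptors, 2 rose, 6 fell and 6 did not pass, with a median of -0.06. SH3KBP1, an adaptor that links the ubiquitin ligase CBL to endocytosis of EGFR, had log2 signals of 7.22, 6.69, 6.76, 6.79 and 6.80 in H2A.X-KO cells, against 8.24, 8.05, 8.02, 8.04 and 8.04 in WT cells. Every H2A.X-KO array lay below every WT array, and SH3KBP1 fell by 1.23 on the log2 scale (limma, adjusted p = 4.29e-07). RNF41, a ubiquitin ligase of ERBB3, fell by 0.89. LRIG1, a membrane protein that promotes degradation of ERBB receptors, had log2 signals of 6.46, 6.47, 6.39, 6.39 and 6.34 in H2A.X-KO cells, against 7.19, 7.12, 7.05, 7.04 and 6.97 in WT cells. Its groups did not overlap, and the LRIG1 difference was -0.66 ± 0.06 (SE; limma, adjusted p = 1.32e-06). Its relative LRIG3 rose by 0.59, and ERRFI1, which encodes MIG6, a feedback inhibitor of the EGFR kinase, rose by 0.42.

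Of 16 measured adaptors and proximal signalling genes, 4 rose, 5 fell and 7 did not pass, with a median of 0.002. The adaptor gene SHC1 rose by 0.33 and the transcription factor genes STAT3 and STAT5B rose by 0.47 and 0.55, while the RAS exchange factor gene SOS2 fell by 0.76, the adaptor gene NCK2 fell by 0.66 and the EGFR substrate gene EPS8 fell by 0.62. GRB7, an adaptor whose gene is near ERBB2, was at 5.78 ± 0.08 in H2A.X-KO cells and 5.97 ± 0.14 in WT cells (SD, n = 5 each) and did not pass (limma, adjusted p = 0.0781). Without WT replicate 5 it passed, at -0.23 (limma, adjusted p = 0.0181). STAT3, STAT5B and RHBDF2 lie on chromosome 17, as does NF1 below, and 28.2% of the 884 measured genes of that chromosome were higher in H2A.X-KO cells. The part of this chromosome-wide level in those rises was not tested.

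In the RAS-ERK cascade 8 of 16 listed genes were measured, of which 2 rose, 3 fell and 3 did not pass, with a median of -0.10. MAP2K1, which encodes the kinase MEK1, fell by 0.62 and SHOC2, a scaffold for RAF activation, fell by 0.72, while NF1, an inhibitor of RAS, rose by 0.32. The 2 rises became 1 under median centring of each array, when the whole table was tested, and without H2A.X-KO replicate 4 or 5 or WT replicate 1 or 3. NF1 stayed in these settings, and the call that ended was HRAS. HRAS was at 0.20 with overlapping groups (limma, adjusted p = 0.0254). In the PI3K-AKT branch 6 of 16 were measured, of which 0 rose, 2 fell and 4 did not pass by limma. Without the dimmer probe sets the 0 rises became 1, AKT2 (0.14, adjusted p = 0.0860 over all named probe sets). MTOR fell by 0.53 and PDPK1, which encodes the kinase that activates AKT, fell by 0.45, and by 0.29 on its other probe set. The listed catalytic and regulatory subunits of PI3K were not analysed here.

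Transcripts known to be induced by EGF moved both ways, with 8 rises, 8 falls and 5 not passing among 21 measured and a median of 0.04. CCND1, which encodes cyclin D1, rose by 1.25, MYC by 0.77 and the ERK phosphatase gene DUSP4 by 0.61. The early response genes EGR1 and JUN fell by 1.36 and by 0.70, EGR1 also on its other probe set (-1.38). Not all early response genes of the list fell. FOS passed upward near the threshold, at 0.19 with overlapping groups (limma, adjusted p = 0.0455). Its other probe set gave 0.23 (limma, adjusted p = 0.0291). FOSL1, JUNB and IER2 did not pass. ETV5, a transcription factor gene downstream of ERK, fell by 0.69. EGR1 lies on chromosome 5, where 30.0% of measured genes were lower, and the part of that level in its fall was not tested. The 8 rises became 4 when each array was centred on its median or when the whole table was tested, and 5 without H2A.X-KO replicate 2, 3 or 4 or WT replicate 2, 3 or 5. CCND1, MYC and DUSP4 stayed among the rises in each of these settings.

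**Figure D4:**
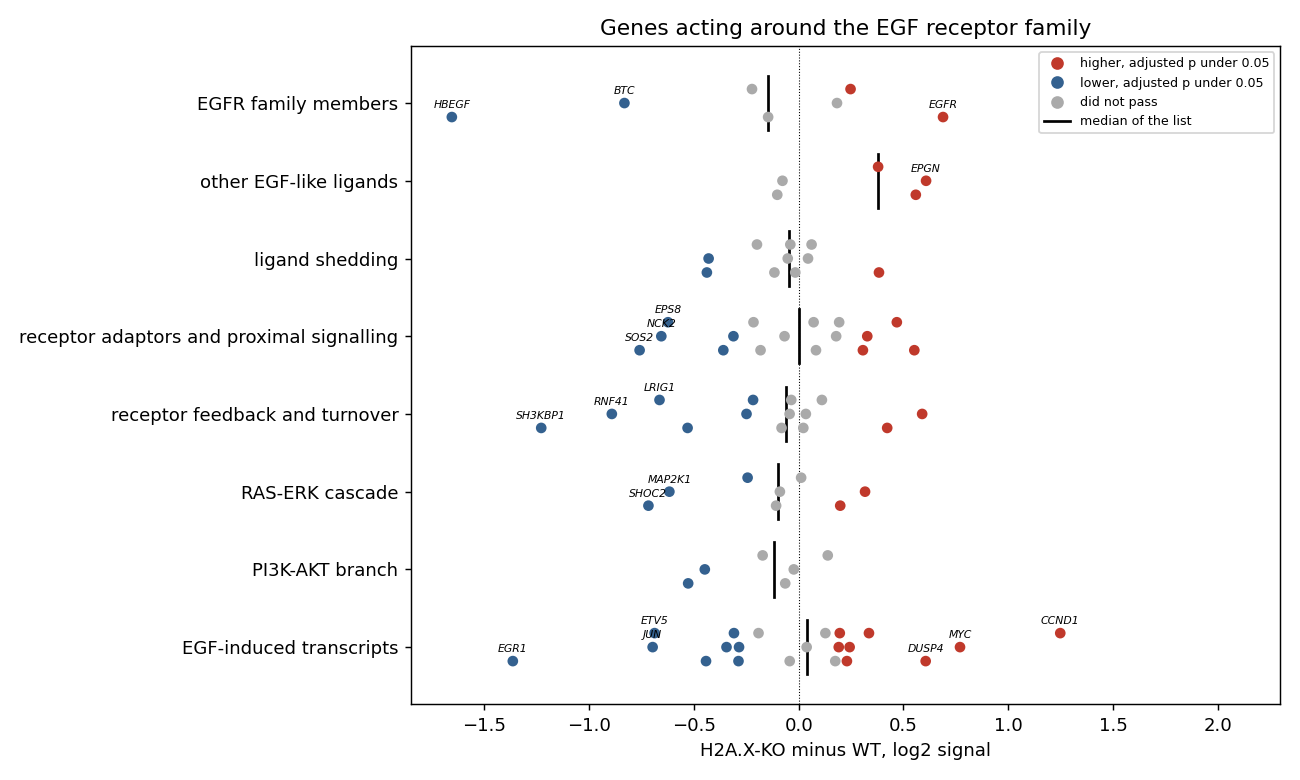
Difference in log2 signal, H2A.X-KO minus WT, of each measured gene in 8 lists around the receptor family; red passed upward, blue passed downward, grey did not pass, and the black line is the median of the list. The medians stay between -0.15 and 0.04 except that of the 5 other ligands at 0.38. That median is the value of NRG2, whose other probe set gave 0.11 and did not pass. HBEGF (-1.66) is the leftmost point, CCND1 (1.25) the rightmost.

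Genes whose signals over the 10 arrays followed those of the 4 changed members most closely were found by Pearson correlation among 7611 genes above the median signal. All 10 arrays share the step between the groups, which sets most of each correlation, so these are descriptions. HBEGF was closest to RUFY1 (r = 0.998), ZSCAN12P1 (0.998) and LINC00707 (0.997). EGFR was closest to GRN, FASN and MSI2 (0.998 each), all 3 on chromosome 17. BTC was closest to ZER1 (0.981), PHYKPL (0.979) and IPO9 (0.974), and EREG to POGLUT1 (0.974), NEIL1 (0.958) and DCAF7 (0.952).

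Across the series the array medians lay between 4.26 and 4.35, and arrays of the same group correlated at 0.991 to 0.996 over the named probe sets, arrays of different groups at 0.975 to 0.980. H2A.X-KO replicate 1 stood apart on the second principal component (7.85% of the variance), at 21.36 against -9.74 to -2.74 in the other H2A.X-KO arrays. The targeted gene was not analysed here, so the groups rest on the labels. Of 12 basal breast epithelium markers 2 were measured, KRT5 and KRT14, and they rose by 0.78 and 2.59. KRT14 lies on chromosome 17, where 28.2% of measured genes were higher, and the part of that level in its rise was not tested. Of the fibroblast markers 3 of 10 were measured, with a summed log2 signal of 14.2 to 14.7 in H2A.X-KO arrays and 11.9 to 12.7 in WT arrays. DCN (2.06) rose, while LUM (-0.09) and THY1 (0.11) did not pass, and LUM was at the 11.6th percentile of all probe set means. The 6 endothelial markers summed to 24.9 to 26.3 in H2A.X-KO arrays and 23.3 to 23.7 in WT arrays, with KDR (1.69) as the 1 rise. The 4 immune markers summed to 24.5 to 25.0 in H2A.X-KO arrays and 25.0 to 25.2 in WT arrays, with CSF1R (0.72) higher and CD14 (-0.76) and CD68 (-0.37) lower. DCN and CD14 were not tested without the dimmer probe sets. The part of other cell types in the differences above was not tested.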

How the data were processed

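RNA of 10 MCF10A samples was measured on Affymetrix arrays from 1 µg of total RNA. The authors deposited 1 log2 signal for each probe set and array, after summarisation and normalisation. The software named per the submitters' processing notes is Affymetrix Expression Console and Partek 6.6. How probe sets were summarised and whether any were filtered is not given in the sources used. That the scale is log2 was inferred from the range, 1.13 to 13.87. No batch is recorded. Array medians are nearly equal, so a shift of all transcripts together cannot be seen. Of 53617 probe sets, 16098 carried 1 gene symbol in the platform annotation, 0 several and 37519 none, and all 16098 were matched by Entrez identifier to RefSeq of GRCh38.p14.

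Differences are H2A.X-KO minus WT by lmFit and eBayes of limma 3.58.1 (R 4.3.3), with no covariate or filter, and Benjamini-Hochberg adjustment over the 16098 named probe sets; all tests were two-sided. The probe set with the highest mean stood for a gene. Named were all members, up to 3 rises and 3 falls per list that passed without overlap of the groups, 7 direct partners, and genes by the neighbour and likeness rules; other list genes, markers and neighbours named were chosen after their values were seen. Members and lists were chosen with earlier results of these data known. Python 3.11.15, pandas 2.3.3 and matplotlib 3.10.9 made tables and plots. The number of arrays limits the precision, with a median SE of 0.08. On simulated data with 16098 probe sets, 100 were changed by 0.5 and 100 by 1, far fewer than the 5344 called in the real data. Of these, 66% and 97% were recovered, with 9 unchanged probe sets called. With so few changed the adjustment is stricter, so these shares are not the recovery rates of the real comparison. Alternatives were quantile normalisation, median centring, a filter on dim probe sets, an intensity trend, a robust prior, 1 probe set per gene, all probe sets, the replicate number as a block and leaving out each array.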

Additional observations from a re-analysis of the deposited data

Results flagged for a closer look

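Among 146 groups of 5 arrays (73 of the genes named in the text), 5 held an array whose gap to its nearest neighbour took up more than the critical share of the group's range, where chance flags about 1 group in 20. ERBB3 was at 4.98 in H2A.X-KO replicate 1, against 5.30 to 5.42 in the other H2A.X-KO arrays, and at 5.51 in WT replicate 2, against 5.41 to 5.44 in the other WT arrays. SH3KBP1 was at 7.22 in H2A.X-KO replicate 1, against 6.69 to 6.80 in the others of its group, and at 8.24 in WT replicate 1, against 8.02 to 8.05. MTHFD2L was at 9.00 in H2A.X-KO replicate 5, against 8.64 to 8.71 in the others of its group.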

How the results depend on the processing

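The differences of HBEGF, BTC, EGFR and EREG kept their direction and passed under every alternative in which they were tested, at -1.70 to -1.60, -0.89 to -0.76, 0.66 to 0.72 and 0.21 to 0.28. BTC, ERBB3, ERBB4 and NRG1 were not tested without the dimmer probe sets, where 3 members passed. ERBB3 and NRG1 passed under none. With an array left out ERBB4 ran from -0.37 to -0.12 and passed without H2A.X-KO replicate 1 (adjusted p = 0.0309), so that 4 to 5 members passed. The number of named probe sets called ran from 4940 to 5384 with an array left out and from 4534 to 5509 otherwise, against 5344. Deviations of same-numbered samples correlated at -0.01 to 0.20, and those of samples with different numbers at -0.17 to 0.10. The value of 0.20 was that of replicate 1, and 1 of 5 H2A.X-KO arrays, replicate 1, was closest to its own number. On the second principal component replicate 1 was the highest array of each group, at 21.36 in H2A.X-KO cells and 6.24 in WT cells. Whether the numbers pair the samples was not tested. With the replicate number as a block 5207 probe sets and the same count of 4 members passed. NRG4 (adjusted p = 0.0516) ended under the block, and NRG4 (0.0778), EGFR-AS1 (0.0756) and TMCO6 (0.0725) when the whole table was tested. TMCO6 also ended under centring (0.0636). CXCL2 passed under centring (0.0299), under the block (0.0371), without the dimmer probe sets (0.0309) and without H2A.X-KO replicate 1 (0.00763), and IPO9 and GRB7 without the dimmer probe sets (0.0208 and 0.0345), IPO9 also with an intensity trend (0.00448). Averaging several probe sets of a member was not run, since each measured member has 1.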
